A study of Mus musculus with 2 samples.

Results

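Markers of mesoderm and definitive endoderm were read in 2 RNA sequencing libraries of Dicer_KO mouse embryonic stem cells (mESCs). The 10 genes were T (Brachyury), Mixl1, Evx1, Tbx6, Mesp1, Fgf8 and Actc1 for primitive streak and mesoderm, and Gsc, Foxa2 and Cer1 for anterior streak and definitive endoderm. They were chosen by name, and all 10 were found by their Ensembl identifiers among the 43629 genes listed for each library. Both libraries carried the genotype Dicer knockout on a 129/Ola background, and they differed in passage, which was 7 for replicate 1 and 4 for replicate 2. The cells derive from the E14TG2a line and were kept routinely in serum with LIF, the cytokine that holds mESCs undifferentiated. The study made its knockout lines by cutting Dicer1 with pairs of CRISPR/Cas9 guides and sorting single cells, so that each line is a clone, and it made more than 1 deletion. Which deletion each library carried is not stated in its labels. Line, passage and library can therefore not be told apart in any difference between the replicates, and wild-type libraries were not analysed here.

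Each library was made from polyA RNA with a strand-specific kit. The authors deposited the reads counted on each gene, 41710122 in replicate 1 and 41566184 in replicate 2. A gene's share of these totals is given as CPM (counts scaled to a total of 1000000), and its level per length as RPKM (CPM per kb of exon). Intervals are 95% Wilson intervals and cover counting error only. For a gene at 0 counts, a limit of 3 counts is used in place of the Wilson interval, and it equals 0.0719 CPM in replicate 1 and 0.0722 CPM in replicate 2. The targeted gene, Dicer1, had 1343 and 1510 counts, or 32.2 and 36.3 CPM. No library without the knockout was at hand to set this against, and reads outside a deletion still count.

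The primitive streak is the site of the gastrulating embryo where epiblast cells turn into mesoderm and definitive endoderm. Nodal, Wnt and FGF signals start it, and they switch on T-box factors such as T and Eomes and homeobox factors such as Mixl1, Evx1 and Gsc. Undifferentiated mESCs are known for low or absent expression of these genes, which come up when embryoid bodies form.

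The study followed T, Fgf8 and Actc1 by RT-qPCR as mesoderm markers, and its primers are shown here because they mark the exact stretch of each mRNA that was read. Capitals mark the part that matched a GENCODE M21 transcript of the gene without mismatch. Each primer matched transcripts of its own gene only, except the Fgf8 forward primer, which had no full match. Its last 20 nt were searched in Fgf8 transcripts only and matched there, and its first 5 nt did not.
T forward: TCTCTGGTCTGTGAGCAATGGT
T reverse: TGCGTCAGTGGTGTGTAATGTG
Fgf8 forward: cgcttTAGTTGAGGAACTCGAAGCG
Fgf8 reverse: ACATGGCCTTTACCCGCAAG
Actc1 forward: CCAAAGCTGTGCCAGGATGT
Actc1 reverse: GCCATTGTCACACACCAAAGC

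In GRCm38 the T primers span chr17:8441605-8441721 on the plus strand, 117 nt of coding sequence in exon 8. The Fgf8 primers span chr19:45737051-45737189 on the minus strand, 139 nt within exon 5, and the primer listed as forward runs antisense to the mRNA. The Actc1 primers span chr2:114051987-114052047 on the minus strand, 61 nt within exon 2, where 4 of the 20 nt of the forward primer are coding and the others lie in the 5′ UTR. The 3 genes read by these primers were at 0 to 3 counts in both libraries.

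T, the T-box factor that defines nascent mesoderm (chromosome 17, 8434423 to 8442496, plus strand), had 3 counts in replicate 1 and 2 in replicate 2. This equals 0.0719 CPM (interval 0.0245 to 0.211) and 0.0481 CPM (0.0132 to 0.175). Neither library was above the limit of 3 counts, so T was not detectable as expressed at this depth.

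Tbx6, the T-box factor of presomitic mesoderm (chromosome 7, 126781483 to 126785560, plus strand), had 48 counts in replicate 1 and 30 in replicate 2. Its level was 1.15 CPM (0.868 to 1.53) and 0.722 CPM (0.506 to 1.03), with a mean of 0.936 ± 0.303 CPM (SD, n = 2). The intervals of the libraries overlapped. Tbx6 was thus above the limit of 3 counts in both libraries, and T was above it in neither.

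Mixl1, a homeobox factor of the streak that acts in mesendoderm (chromosome 1, 180693043 to 180697034, minus strand), had 22 and 16 counts. The levels were 0.527 CPM (0.348 to 0.799) in replicate 1 and 0.385 CPM (0.237 to 0.625) in replicate 2, with overlapping intervals.

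Evx1, a homeobox factor of the posterior streak (chromosome 6, 52313498 to 52318378, plus strand), had the most counts of the 10 markers, 128 in replicate 1 and 379 in replicate 2. Its level was 3.07 CPM (2.58 to 3.65) and 9.12 CPM (8.25 to 10.1), and the mean was 6.09 ± 4.28 CPM (SD, n = 2). The intervals did not overlap, and replicate 2 was the higher library. Evx1 made up 50.6% of all counts on the 10 markers in replicate 1 and 83.7% in replicate 2.

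Mesp1, the bHLH factor of early cardiac mesoderm (chromosome 7, 79792241 to 79793788, minus strand), had 1 count in replicate 1 and 9 counts in replicate 2. The levels were 0.0240 CPM (0.00423 to 0.136) and 0.217 CPM (0.114 to 0.412). Replicate 2 alone was above the limit of 3 counts.

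Fgf8, the FGF ligand that the streak secretes (chromosome 19, 45736798 to 45742915, minus strand), had 3 counts in replicate 1 and 2 counts in replicate 2, at or under the limit. Actc1, cardiac actin and a marker of differentiated heart muscle (chromosome 2, 114047282 to 114053548, minus strand), had 0 counts in both, for which the limit of 3 counts is 0.0719 CPM in replicate 1 and 0.0722 CPM in replicate 2.

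Of the endoderm markers, Gsc, the homeobox factor of the organizer (chromosome 12, 104471209 to 104473330, minus strand), had 42 counts in replicate 1 and 14 counts in replicate 2. Its level was 1.01 CPM (0.745 to 1.36) and 0.337 CPM (0.201 to 0.565), so replicate 1 was the higher library and the intervals did not overlap. Foxa2, the forkhead factor of endoderm and node (chromosome 2, 148042877 to 148046969, minus strand), had 6 counts and 1 count. Its level of 0.144 CPM (0.0659 to 0.314) in replicate 1 and 0.0241 CPM (0.00425 to 0.136) in replicate 2 left the intervals overlapping. Cer1, the secreted antagonist of Nodal and BMP (chromosome 4, 82881751 to 82885148, minus strand), had 0 counts in both libraries.

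**Figure D1:**
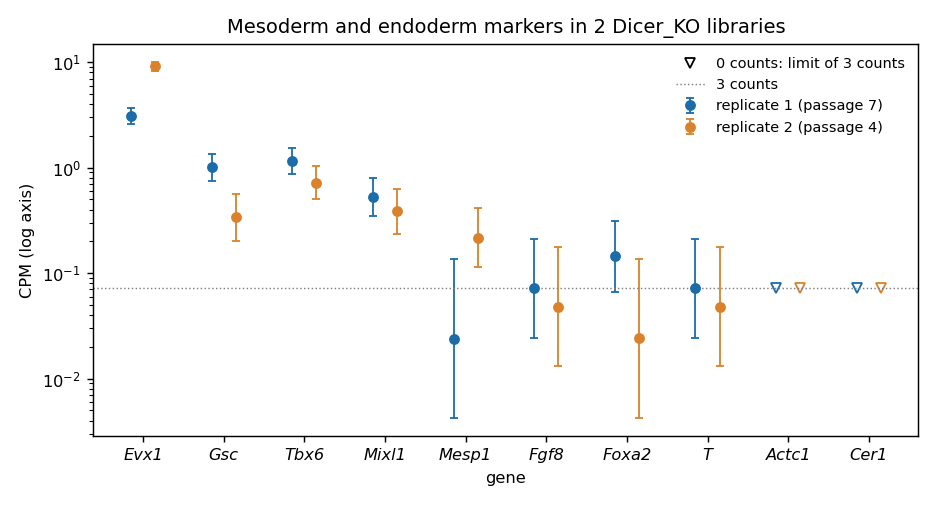
CPM (log axis) of the 10 markers in replicate 1 and replicate 2, ordered by level per exon length; points are single libraries, bars are 95% Wilson intervals, triangles give the limit of 3 counts for genes at 0 counts, and the dotted line is 3 counts. Evx1 is the highest in both libraries, T and Fgf8 lie at or under the line, and Actc1 and Cer1 have no counts.

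In all, 4 of the 10 markers (Evx1, Gsc, Tbx6 and Mixl1) had a mean of at least 10 counts and 6 did not. Of the 21474 protein-coding genes, 68.4% reached that mean. Another 4 markers (T, Fgf8, Actc1 and Cer1) were at or under 3 counts in both libraries. The sum over the 10 genes was 253 counts (6.07 CPM) in replicate 1 and 453 counts (10.9 CPM) in replicate 2. Without Evx1 the order of the libraries turned, with 125 counts (2.997 CPM) in replicate 1 and 74 counts (1.78 CPM) in replicate 2.

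Per exon length, the mean level fell in the order Evx1, Gsc, Tbx6, Mixl1, Mesp1, Fgf8, Foxa2 and T, with Actc1 and Cer1 at 0. Evx1 was at 2.12 ± 1.49 RPKM (SD, n = 2), Gsc at 0.530 ± 0.374, Tbx6 at 0.519 ± 0.168 and Mixl1 at 0.199 ± 0.0439. Evx1 lay above Gsc in both libraries, but the intervals were apart in replicate 2 only. Gsc and Tbx6 could not be put in order, since Gsc was the higher in replicate 1 (0.794 against 0.638 RPKM) and Tbx6 in replicate 2 (0.400 against 0.266 RPKM). Tbx6 was above Mixl1 with separate intervals in both libraries. From Mixl1 down, neighbours in the order overlapped in their intervals in at least 1 library. A share of 52.6% of protein-coding genes had a higher RPKM than Evx1 in replicate 1, and 39.0% in replicate 2. For Gsc these shares were 54.7% and 58.8%, and for T 73.5% and 73.4%.

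To set these levels beside genes known to be abundant in such cells, the RPKM of other genes was read. All 12 pluripotency genes of a list for the labelled cell type lay above Evx1 in both libraries. Pou5f1 (Oct4), the POU factor of pluripotency, was at 417 RPKM in replicate 1 and 460 RPKM in replicate 2, Sox2 at 309 and 250 RPKM, and Nanog at 508 and 281 RPKM. The lowest of the list was Dppa3 (Stella), at 10.1 and 11.5 RPKM. The label of embryonic stem cells was thus met by its markers.

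**Figure D2:**
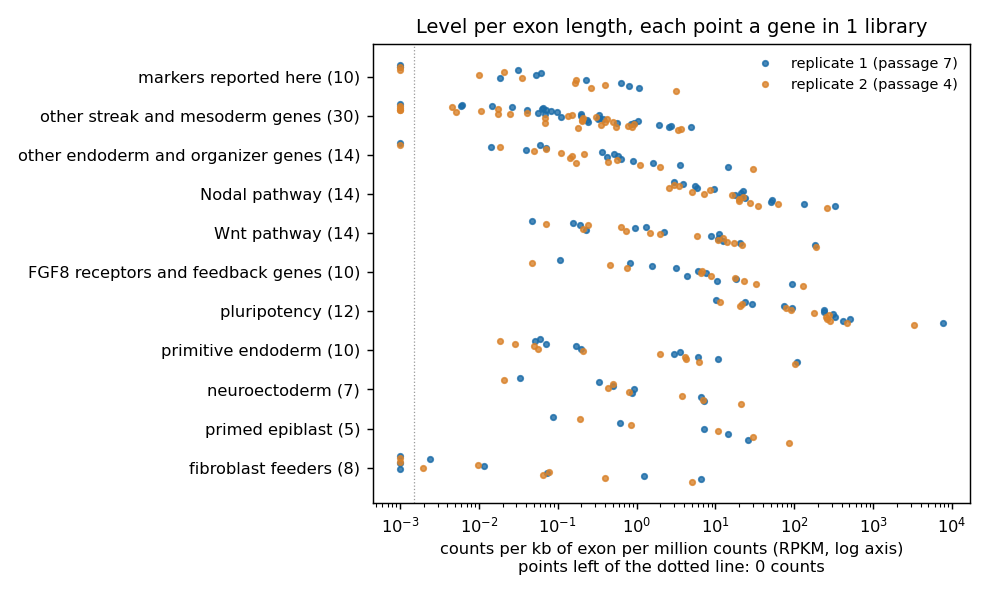
RPKM (log axis) of each gene in each library for the 10 markers and for 10 other gene lists, with the number of genes in brackets; points left of the dotted line have 0 counts. The markers reach 3.17 RPKM at most, the pluripotency genes start at 10.1 RPKM, and the Nodal pathway genes lie between 2.55 and 331 RPKM. Tdgf1, the highest of the Nodal pathway genes, is also among the pluripotency genes.

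The libraries were compared after scaling replicate 2 to replicate 1 by 1.09, the ratio of their effective sizes by the TMM method of edgeR. A gene was taken as past 2-fold when its mean was at least 10 counts and its log2 ratio of replicate 1 over replicate 2, with a pseudocount of 1, was above 1 or below -1. With 1 library on each side there is no replicate check, no test was made, and intervals of a ratio are exact binomial intervals for counting error. Of the 4 markers that could be read this way, 2 were past 2-fold, 1 in each direction. Of the 17788 genes that reached this mean, 21.4% were past 2-fold, 14.2% with the higher level in replicate 1 and 7.14% with the higher level in replicate 2. Of the 7031 genes whose mean lay from 10 to under 300 counts, the range that holds these 4 markers, 38.0% were past 2-fold. Differences past 2-fold were therefore common at this depth. The share of genes that differed by as much as Evx1 or Gsc was not computed. Past 4-fold, 741 of the 17788 genes were higher in replicate 1 and 275 were higher in replicate 2.

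Evx1 had 128 and 413 normalized counts and was 3.22-fold higher in replicate 2 (interval 2.63 to 3.97), with a log2 ratio of -1.68. Gsc had 42 and 15.2 normalized counts and was 2.76-fold higher in replicate 1 (1.48 to 5.46), with a log2 ratio of 1.40. The ratio of Tbx6 was 1.47 (0.913 to 2.40) and that of Mixl1 was 1.26 (0.634 to 2.57), so neither was set apart from 1. The 2 markers with few counts gave wide intervals. Mesp1 was 9.80-fold higher in replicate 2, with an interval of 1.36 to 429, and Foxa2 was 5.51-fold higher in replicate 1, with an interval of 0.669 to 254. For T, Fgf8, Actc1 and Cer1 no ratio is given, because both libraries were at or under 3 counts.

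**Figure D3:**
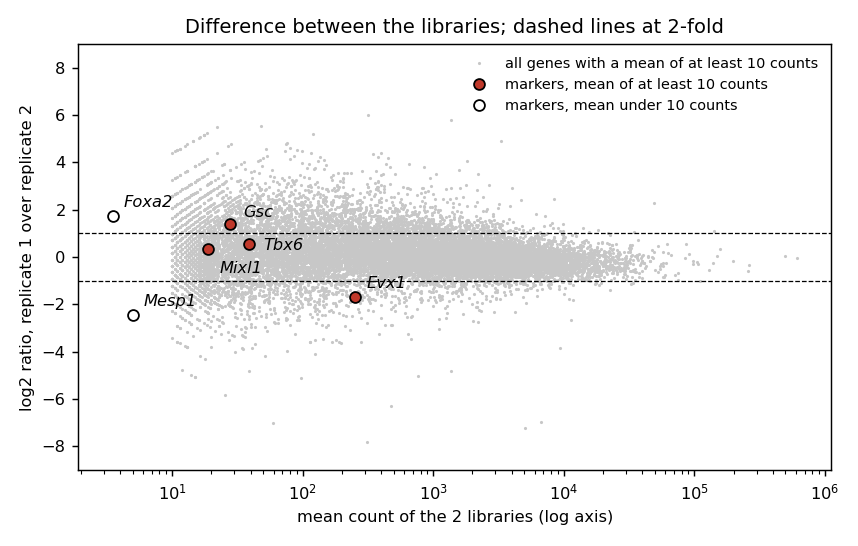
Log2 ratio of replicate 1 over replicate 2 against the mean count (log axis); grey points are the 17788 genes that reached a mean of 10 counts, red points are markers that reached it, white points are markers below it, and dashed lines mark 2-fold. Evx1 lies at -1.68 and Gsc at 1.40, outside the lines, and Tbx6 and Mixl1 lie between them.

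Relatives of the markers were read from family lists. Among 14 other T-box genes, 8 had a mean of at least 10 counts, of which 2 were past 2-fold with the higher level in replicate 1 and 1 with the higher level in replicate 2. The most abundant were Mga, at 24.1 and 32.7 RPKM, and Tbx3, a factor of naive pluripotency, at 24.6 and 22.4 RPKM, while T was at 0.0311 and 0.0208 RPKM. Eomes, which acts beside T in the streak, had 334 counts in replicate 1 and 151 in replicate 2, at 1.93 and 0.874 RPKM. Its log2 ratio of 1.02 put it just past 2-fold. Tbx15 had 106 and 19 counts, and Tbx21 had 7 and 41 counts with the opposite direction. Of all 17788 genes, 14.2% were past 2-fold with the higher level in replicate 1 and 7.14% with the higher level in replicate 2.

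Mesp2, the neighbour in sequence of Mesp1 and a factor of somite borders, had 76 and 29 counts and was 2.41-fold higher in replicate 1. Mesp1 itself, with 1 and 9 counts, had its higher count in replicate 2. Foxa1 had 72 and 21 counts and Foxa3 had 50 and 12 counts, so that both were past 2-fold with the higher level in replicate 1. Mesp2, Foxa1 and Foxa3 had means from 10 to under 300 counts, where 38.0% of genes were past 2-fold in either direction. The share over all 17788 genes was 21.4%. Foxa2, with 6 counts and 1 count, was below the mean of 10, and its ratio interval of 0.669 to 254 included 1. Gsc2 had 13 and 20 counts with a ratio interval of 0.273 to 1.26, and Evx2 had 0 counts in both libraries. Of the 6 DAN family antagonists listed beside Cer1, only Dand5 (105 and 48 counts) and Nbl1 (36 and 14 counts) had a mean of at least 10. Sost had 0 counts in both, as Cer1 had.

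**Figure D4:**
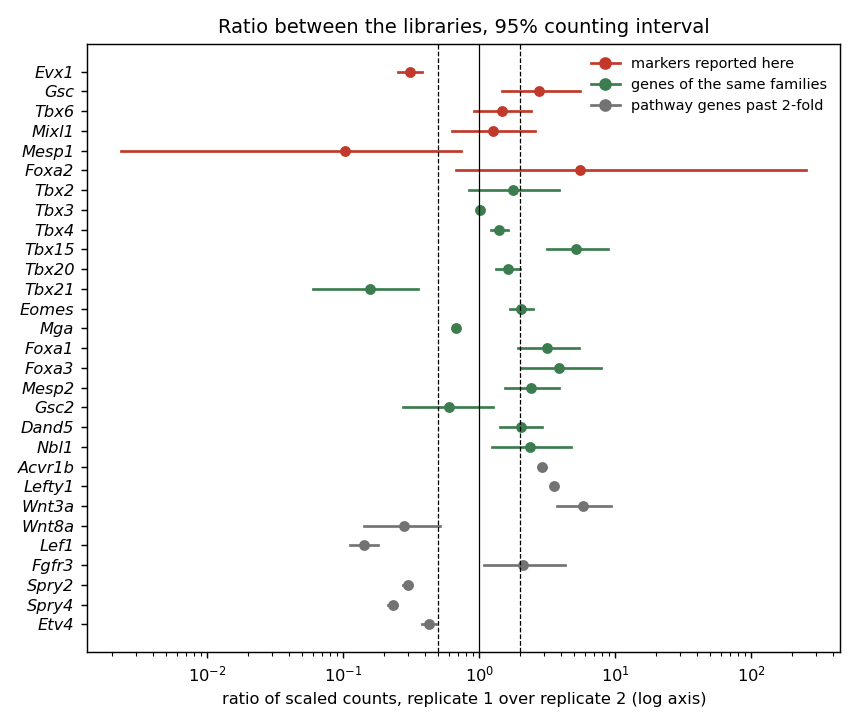
Ratio of scaled counts, replicate 1 over replicate 2 (log axis), for the 6 markers with more than 3 counts in a library (red), 14 genes of the T-box, MESP, FOXA, DAN and homeobox families with a mean of at least 10 counts (green; actins and FGF ligands are not shown) and 9 genes of the Nodal, Wnt and FGF lists past 2-fold (grey); bars are 95% counting intervals and dashed lines mark 2-fold. Evx1 and Mesp1 lie to the left of 1, while Gsc, Foxa1, Foxa3, Mesp2 and Eomes lie to the right.

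Among the actins, Actb and Actg1, the cytoplasmic forms, were at 522 and 90.5 RPKM in replicate 1 and at 577 and 111 RPKM in replicate 2. The muscle actin Acta1 had 35 and 6 counts, Acta2 had 1 and 11 counts, and Actc1 had none. Actin mRNAs are much alike, but none of the 1424 windows of 50 nt in the longest Actc1 transcript occurred in a transcript of another gene. Cer1 shared 1.78% of its windows with transcripts of 161 other genes, Evx1 shared 0.919% with 1 other gene, and the other 7 markers shared none. Only exact matches were searched, while the authors' alignment allowed mismatches, so reads from near copies may still not be told apart. Copies outside annotated transcripts were not searched.

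The FGF ligands gave a contrast of levels to Fgf8. Fgf4, the ligand of undifferentiated mESCs, was at 168 RPKM in replicate 1 and 121 RPKM in replicate 2, against 0.0533 and 0.0356 RPKM for Fgf8. Of 9 other ligands listed, 7 reached a mean of 10 counts and 4 of these were past 2-fold with the higher level in replicate 2, where 7.14% of all genes were. Fgf17 and Fgf18, which share a subfamily with Fgf8, had 49 and 249 counts and 7 and 60 counts, and the others were Fgf15 and Fgf5. Fgf5, Fgf17 and Fgf18 had means from 10 to under 300 counts, where 38.0% of genes were past 2-fold in either direction.

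Of 30 other streak and mesoderm genes, 20 had a mean of at least 10 counts. Of these, 6 were past 2-fold with the higher level in replicate 1 and 5 with the higher level in replicate 2. The shares over all 17788 genes were 14.2% and 7.14%, and 38.0% in either direction from 10 to under 300 counts. The median log2 ratio of the 20 genes was 0.45, against 0.02 over the 17788 genes. Higher in replicate 1 were Hand1 (229 and 15 counts), a factor of extraembryonic and lateral mesoderm, Cdx1 (76 and 5 counts), Nkx2-5 (24 and 5 counts), Foxc1 (20 and 6 counts), Mesp2 and Eomes. Higher in replicate 2, as Evx1 was, were Kdr (90 and 353 counts), the VEGF receptor of blood and vessel precursors, Meox1 (22 and 47 counts), Cdx4 (9 and 34 counts), Sp5 (6 and 27 counts) and Myh7 (20 and 54 counts). Only Snai1, at 4.94 and 3.34 RPKM, and Tcf15, at 2.54 and 3.68 RPKM, lay above Evx1 in both libraries. Msgn1, a factor of presomitic mesoderm, had 0 counts in both.

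Among 14 other endoderm and organizer genes, 11 had a mean of at least 10 counts, of which 4 were past 2-fold with the higher level in replicate 1, as Gsc was. These were Cxcr4 (68 and 13 counts), Foxa1, Foxa3 and Gata6 (16 and 5 counts). Otx2, which is also a marker of primed epiblast, was the only one past 2-fold in the other direction, at 14.3 and 30.0 RPKM. The median log2 ratio of the 11 genes was 0.62. Over all 17788 genes, 14.2% were past 2-fold with the higher level in replicate 1. Cxcr4, Foxa1, Foxa3 and Gata6 had means from 10 to under 300 counts, where 38.0% of genes were past 2-fold in either direction. Sox17, a defining factor of definitive endoderm, had 14 and 10 counts, and Shh had none.

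Of the signals that start the streak, the Nodal pathway was measured well above the markers themselves. All 14 Nodal pathway genes with a matched identifier had a mean of at least 10 counts, and 12 of them lay above Evx1 in both libraries. Nodal, the ligand, was at 21.1 RPKM in replicate 1 and 16.4 RPKM in replicate 2. Its co-receptor Tdgf1 (Cripto), which is also on the pluripotency list, was at 331 and 261 RPKM. Only the receptor Acvr1b (4179 and 1325 counts) and the inhibitor Lefty1 (9661 and 2520 counts) were past 2-fold, both with the higher level in replicate 1. Among all 17788 genes that reached this mean, 14.2% were past 2-fold in that direction, so 2 of 14 was near that share. The partner factor Foxh1 had 2940 and 1539 counts and a log2 ratio of 0.81, and Furin, a protease that cuts the Nodal precursor, had one of 1.00 and did not pass.

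Among 14 Wnt pathway genes, 13 had a mean of at least 10 counts. Wnt3a, a ligand of the streak, had 150 and 24 counts and was past 2-fold with the higher level in replicate 1. Wnt8a (14 and 46 counts), another ligand, and Lef1 (83 and 535 counts), a nuclear effector, were past 2-fold in the opposite direction. The share past 2-fold over all 17788 genes was 21.4% in either direction. Wnt3a and Wnt8a had means from 10 to under 300 counts, where 38.0% of genes were past 2-fold. Ctnnb1 (beta-catenin) was at 184 and 188 RPKM and Axin2, a feedback target, at 0.954 and 0.725 RPKM, with a ratio interval of 0.986 to 1.49. Wnt3, the ligand that first marks the streak, had 6 and 9 counts.

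Of the 10 FGF receptors and feedback genes, Spry2 (921 and 2838 counts), Spry4 (874 and 3479 counts) and Etv4 (405 and 868 counts) were past 2-fold with the higher level in replicate 2, and the receptor Fgfr3 (32 and 14 counts) with the higher level in replicate 1. Etv5 and Dusp6 had log2 ratios of -0.59 and -0.48. Over the 5 pathway lists, 25 of the 68 genes that reached the mean of 10 counts were past 2-fold, 14 with the higher level in replicate 1 and 11 with the higher level in replicate 2. Over all 17788 genes 21.4% were past 2-fold, and 38.0% in the range from 10 to under 300 counts.

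Markers of other cell types differed between the libraries as well. Over all 17788 genes, 14.2% were past 2-fold with the higher level in replicate 1 and 7.14% with the higher level in replicate 2. From 10 to under 300 counts, 38.0% were past 2-fold in either direction. In bulk RNA, a different share of cells of a type and a different amount of RNA per cell cannot be told apart. The 5 genes of primed epiblast summed to 314 CPM in replicate 1 and 741 CPM in replicate 2, and 3 of them, Dnmt3b, Otx2 and Fgf5, were past 2-fold with the higher level in replicate 2, the library with more Evx1. The 7 neuroectoderm genes summed to 66.7 and 104 CPM, with Tubb3 (559 and 1653 counts) and Neurod1 (100 and 430 counts) past 2-fold in the same direction. The other 4 with a mean of at least 10 counts were within 2-fold, among them Sox1 (101 and 87 counts) and Sox3 (80 and 68 counts), with log2 ratios of 0.09 and 0.11. The 10 primitive endoderm genes, which share Gata4, Gata6 and Sox17 with definitive endoderm, summed to 610 and 534 CPM, with Gata6 and Dab2 (52 and 17 counts) past 2-fold with the higher level in replicate 1, the library with more Gsc. Another 7 of these genes were within 2-fold, from Gata4 at a log2 ratio of 0.76 to Lama1 (1195 and 1672 counts) at -0.61. Of the 8 fibroblast genes, which summed to 27.2 and 18.1 CPM, Postn had 0 counts in both libraries, Col1a1 had 20 and 18 counts, and Dcn, with a mean under 10, had 0 and 19 counts. Pdgfrb (285 and 91 counts) was the 1 past 2-fold among the 3 with a mean of at least 10, and Thy1 had 823 and 621 counts. The part of other cell types in the values of Evx1 and Gsc was not tested.

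The surroundings of the markers in the genome were read from the annotation, taking genes that overlap a marker or end within 5 kb of it. Evx1 overlaps Evx1os, a noncoding RNA on the opposite strand, over 1335 nt of the gene and 73 nt of its exons, or 2.54% of them. Evx1os had 36 and 68 counts with a log2 ratio of -1.02, the higher count being in replicate 2, as for Evx1. This was just past 2-fold with the TMM scaling, and the CPM of 0.863 and 1.64 lay within 2-fold. The authors left out reads on overlapping regions, and whether the count used the strand was not given in the sources used here, so reads of the pair may not be fully told apart. Actc1 lies within A530058N18Rik on the opposite strand, which also had 0 counts in both libraries, and no exons of the pair overlap. Next to Tbx6, Ppp4c lies 305 nt away on the other strand, with 4339 and 4561 counts, and Ypel3 lies 968 nt away on the same strand, with 1030 and 478 counts and a log2 ratio of 0.98. Lin9, 2348 nt from Mixl1, had 1387 and 1306 counts, and Npm3, 4818 nt from Fgf8, had 1545 and 1700 counts. Gm9967, 4664 nt from Tbx6 on the other strand, had only 3 counts and 1 count. C130080G10Rik near Actc1 and 9030622O22Rik near Foxa2 had 0 counts in both libraries. Gm10000, which adjoins Gsc on the other strand, and Gm44705, 1615 nt from Mesp1, were not among the counted genes and could not be read. Tbx6, Mixl1 and Fgf8 were thus low while each had a neighbour with many counts, but not all neighbours of the markers had many.

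Promoters of 300 nt were matched in RefSeq (GRCm38.p6) for 8 of the markers, with 3 for Foxa2 and 10 in all. In CpG content they spread widely. The ratio of observed to expected CpG was 0.934 for Gsc, 0.710 for Evx1 and 0.607 for T, and 0.174 for Mesp1, 0.259 for Actc1, 0.286 for Tbx6 and 0.308 for Cer1. The median over 32851 promoters was 0.384. A ratio of at least 0.6 was found in 5 of the 10 marker promoters and in 35.8% of all promoters. The 3 Foxa2 promoters were at 0.548, 0.767 and 0.680, so this gene enters the 5 more than once. Evx1, Gsc and T, the last at 3 and 2 counts, each had a promoter of this kind, as had Foxa2, at 6 counts and 1 count. Tbx6, close to Gsc in level per length, had none.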

How the data were processed

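Raw counts per gene were deposited for 2 libraries of 1 group. The deposited counts are whole numbers without normalization. Before deposit, the authors used Trimmomatic for trimming, STAR (version 2.4.2a in the submitters' processing notes) for alignment to mm10 and featureCounts (version 1.4.5-p1) with the Ensembl annotation for counting. Reads falling where genes overlap were ignored. How featureCounts treated reads with several alignments was not given in the sources used here, so counts of genes with close copies are uncertain.

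Symbols, positions and exon lengths (union of exons) came from GENCODE M21, on the same build (GRCm38). Of the 43629 identifiers, 1167 had no entry. They held 0.190% and 0.187% of the counts. Of 167 listed symbols, Gdf1 was the 1 not matched. CPM used the totals of all counts, and ratios used TMM factors (edgeR 4.0.16, R 4.3.3), a pseudocount of 1 and a mean of at least 10 counts. Ratio intervals are exact conditional binomial intervals (scipy 1.17.1). With both libraries in 1 group, no model across genes was fitted and no p-value computed. Labels do not say whether the libraries are separate cultures.

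The markers and gene lists were chosen with earlier results of these data known. Every marker, Dicer1 and, of each list, the genes past 2-fold, the 2 highest in mean CPM and defining markers at 0 could be named, with all genes of the family lists and those next to a marker. The others named in the report, such as Nodal, Sox17, Wnt3, Axin2, Foxh1, Furin and Dppa3, were chosen after their values were seen. The range from 10 to under 300 counts was chosen after seeing the data. Wild-type counts were not used here. The steps were tested on simulated data, in which the changed genes all had a mean of at least 50 counts. Among the markers only Evx1 reached that mean. The simulation changed a small set of genes and gave the others little spread beyond counting error. It did not match these libraries, in which 21.4% of genes were past 2-fold. Alternatives were DESeq2 size factors (version 1.42.0), total or raw counts, other pseudocounts, folds and count minimums, transcript length and leaving out a library.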

Additional observations from a re-analysis of the deposited data

How the results depend on the processing

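No paired analysis was possible because there is 1 group only. Across 30 recomputed log2 ratios of the 6 markers with a ratio, no sign changed and none left its counting interval. Evx1 lay between -1.69 and -1.56 and Gsc between 1.22 and 1.52. Mesp1 ranged from -3.17 to -1.30 and Foxa2 from 0.85 to 2.36 with other pseudocounts. Their intervals are so wide that such shifts could hardly leave them. Markers past 2-fold numbered 1 in each direction, 0 in each direction at 4-fold and 2 in each direction with no filter on low counts, where Mesp1 and Foxa2 entered. With a mean of at least 50 counts there were 0 higher in replicate 1, since Gsc was left out, and with the same filter the pathway genes past 2-fold numbered 6 and 6 in place of 14 and 11. Over all genes, 2533 and 1270 became 4180 and 2865 at 1.5-fold, 741 and 275 at 4-fold, 4050 and 3888 with no filter, and 1643 and 681 with a mean of at least 50 counts. Scaling by total counts shifted the median log2 ratio of all genes from 0.02 to 0.14 and left the calls of the markers as they were. In the order per length, 4 markers kept their place without replicate 1, 7 without replicate 2 and 8 with the longest transcript. With 2 libraries, a mean without 1 of them always lies within their SD, so the means were not read this way. At this depth, levels under 0.0719 CPM could not be read.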
